A study of Homo sapiens with 4 samples.

Results

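The 41 genes described here act in homologous recombination, DNA crosslink repair, Holliday junction resolution and base excision. They were chosen by name, and all 41 were among the 57820 gene IDs of the deposited count tables. The RNA came from HEK293T cells, a human embryonic kidney line, transfected with a vector for SF3B1 bearing R625H, K666T or K700E, or for wild-type SF3B1 (WT). There was 1 library per vector, made from poly(A) RNA and read as 100-bp pairs. The labels put the plasmid at 1000 ng for R625H and K666T and at 2000 ng for K700E, and leave the WT amount open. The substitution and the plasmid amount therefore cannot be told apart wherever K700E is compared. All 4 groups are transient transfections, and the labels name no deletion of the cells' own SF3B1.

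Homologous recombination repairs a double-strand break by copying the sister chromatid: the break is cut back to single-stranded DNA, the strand invades the intact copy with the help of BRCA2 and its partners, and the joint molecule is undone by helicases or cut by resolvases. The Fanconi anaemia proteins open crosslinked DNA and hand the resulting break to the same machinery. SF3B1 is the subunit of the U2 snRNP that contacts the branch point, and cancer-associated substitutions in it are known for the use of acceptors (3' splice sites) a short distance upstream of the usual ones.

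Gene reads numbered 82254731 in R625H, 86394759 in K666T, 83025588 in K700E and 90939945 in WT, and uniquely mapped junction reads lay between 65939159 and 71945311. The members had between 138 and 20978 gene reads in a library, and all passed the filter of at least 1 CPM (counts scaled to library size) in at least 1 library. Unmapped pairs made up 16.46% in R625H, 17.31% in K666T, 15.17% in K700E and 8.84% in WT. Of 6 listed markers of the HEK293T line, 5 passed the filter (NEFM, VIM, KRT8, KRT18 and PAX2), whereas PTPRC of leukocytes, ALB of hepatocytes, HBB of erythroid cells and PECAM1 of endothelium did not. The 5 measured genes of a 6-gene interferon list (IFIT1, IFIT2, IFIT3, ISG15 and OAS1) were more than 2-fold higher in each mutant library than in WT, with median log2 ratios of 3.37 in R625H, 2.68 in K666T and 6.21 in K700E. Their part in the results below was not tested. With 1 library per group no difference had a replicate check, every test compares 2 libraries and not conditions, and the 95% Wilson intervals cover counting error only.

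Acceptor choice was measured at pairs of acceptors 10 to 30 nt apart that share a donor (5' splice site), as the percent of the pair's unique junction reads on the upstream acceptor. Of the 41 genes, 36 held a tested pair, with at least 20 reads in each library, and together they held 156 pairs. XRCC2, RAD51B, RAD52, SLX4 and the intronless FANCF held none, and FANCI held the most, 15. A pair was called at an adjusted p under 0.05 (two-sided Fisher's exact test, Benjamini-Hochberg over 21532 pairs) with a difference of at least 10 percentage points. The upstream share rose against WT at 5 pairs in R625H, 6 in K666T and 3 in K700E. This is 3.21%, 3.85% and 1.92% of the members' pairs, where 1.54%, 1.17% and 1.15% of all tested pairs were called higher in the same libraries. It fell at 0 pairs in R625H, 1 in K666T and 0 in K700E, against 0.701%, 0.725% and 0.841% of all pairs. Some of the 41 genes entered the list with earlier results of these data known, so the excess over all pairs describes the list and tests nothing.

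**Figure D1:**
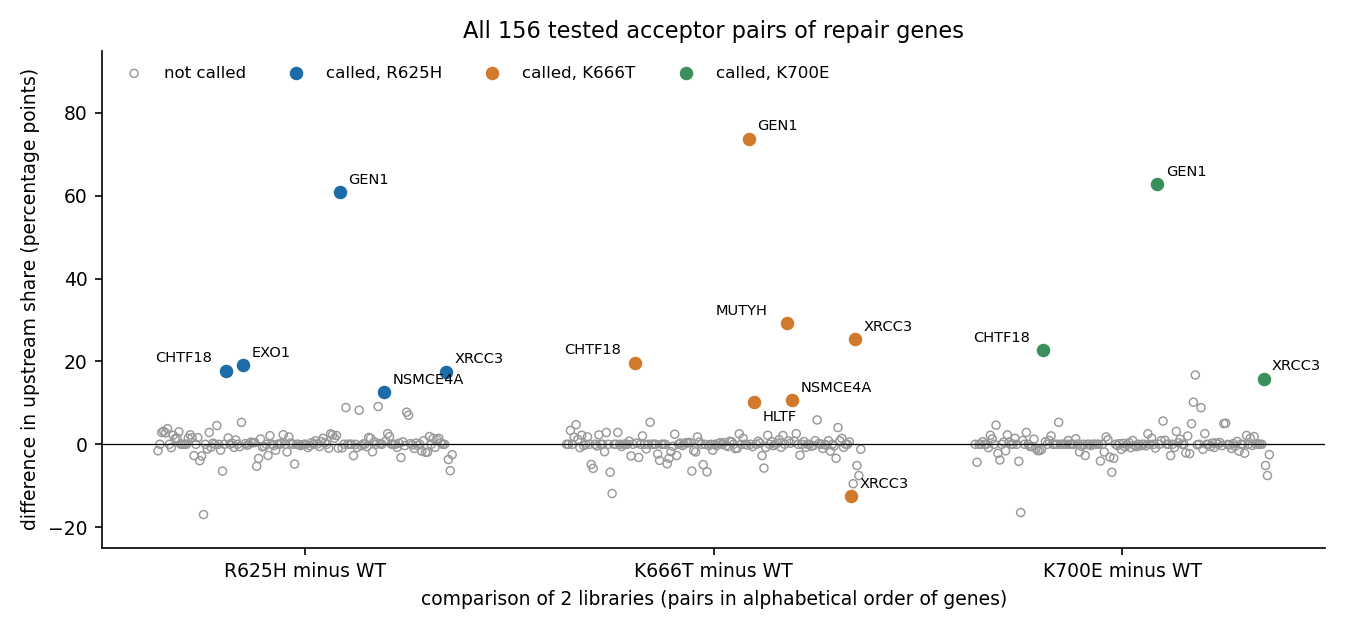
Difference in upstream acceptor share (percentage points, y axis) between each mutant library and WT for all 156 tested pairs of the members, 1 circle per pair, in 3 columns for the 3 comparisons; filled circles were called. Most circles lie near 0, and GEN1 stands far above the rest with differences of 60.9 points in R625H, 73.8 in K666T and 62.8 in K700E.

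The largest shift was in GEN1, the nuclease that cuts Holliday junctions symmetrically. Its pair lies 17 nt apart at the start of exon 2 of 14, and both acceptors are annotated. The 17 bases are 5' UTR sequence, and the start codon begins 15 nt after the downstream acceptor. The bases at chr2:17941179-17941195 (hg19, plus strand) stand in capitals below, since they are kept in the mRNA when the upstream acceptor is used, and the bases that follow them in the exon are in lower case.
GEN1: TGTGTTTCACATAACAGcagataatcacca

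The upstream acceptor of GEN1 took 66 of 98 reads in R625H, 77 of 96 in K666T and 97 of 140 in K700E, against 4 of 62 in WT. As shares these are 67.3% in R625H (interval 57.6 to 75.8), 80.2% for K666T (71.1 to 86.9), 69.3% in K700E (61.2 to 76.3) and 6.45% in WT (2.54 to 15.4). The upstream acceptor was the main one in every mutant library and the minor one in WT, with no overlap of the intervals. The adjusted p was 7.9e-14 for R625H, 1.12e-19 for K666T and 4.74e-16 for K700E. The donors of a pair of first exons supplied most of the reads. At each, the upstream acceptor had more reads than the downstream one in every mutant library and fewer in WT. From the donor at 17935613, upstream and downstream reads were 48 and 25 in R625H, 52 and 15 in K666T, 68 and 32 in K700E, and 3 and 36 in WT. From the donor at 17935235 they were 18 and 6 in R625H, 20 and 4 in K666T, 20 and 9 in K700E, and 1 and 21 in WT. The other tested GEN1 pair, 10 nt apart at exon 12, was read almost wholly at its upstream acceptor, with a share of 99.1% in R625H and 100% in K666T, K700E and WT.

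CHTF18, a subunit of the alternative clamp loader that places PCNA for sister chromatid cohesion, shifted towards an upstream acceptor in all 3 mutant libraries. The acceptor, with the last intron base at 844033 of chromosome 16, is not annotated and lies 20 nt before that of coding exon 15 of 22, so its use adds a length that is not a multiple of 3. It took 50 of 271 reads in R625H, 51 of 250 in K666T and 46 of 196 in K700E, against 3 of 432 in WT. The share rose to 18.4% in R625H, 20.4% in K666T and 23.5% in K700E, against 0.694% in WT (0.236 to 2.02), with adjusted p of 4.11e-17, 9.7e-19 and 5.77e-20. The mutant libraries overlapped each other and stood apart from WT. The most read CHTF18 pair, at exon 22, used its annotated upstream acceptor alone in R625H, K700E and WT and at 96.8% in K666T, 3.18 points below WT and under the limit of the call.

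NSMCE4A encodes a kleisin-like subunit of the SMC5/6 complex, which helps to resolve recombination intermediates. Its unannotated acceptor, with the last intron base at 123733616 of chromosome 10 (minus strand), lies 19 nt before coding exon 2 of 11, again a length that is not a multiple of 3. Reads on it were 41 of 307 in R625H, 37 of 326 in K666T and 30 of 314 in K700E, against 4 of 560 in WT. The share was 13.4% in R625H (10.0 to 17.6), 11.3% for K666T (8.35 to 15.3) and 9.55% in K700E (6.77 to 13.3), against 0.714% in WT (0.278 to 1.82). It rose in R625H (adjusted p 8.81e-14) and in K666T (2.05e-11). K700E had an adjusted p of 6.49e-09 but a difference of 8.84 points, short of the limit of 10, and K666T also fell short (7.89 points) when only the donor with most reads was used. All 3 mutant libraries were above WT and overlapped each other.

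XRCC3, a strand exchange factor of homologous recombination, held a pair 10 nt apart in the 5' UTR, at exon 2 of 10, with both acceptors annotated. The bases at chr14:104179269-104179278 (hg19, minus strand) are those kept with the upstream acceptor and stand in capitals.
XRCC3: TTCTCAGCAGgatgtgcacagagggcccag

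The upstream acceptor of XRCC3 took 96 of 171 reads in R625H, 110 of 172 in K666T and 166 of 305 in K700E, against 56 of 145 in WT. The share was 56.1% in R625H (48.6 to 63.4), 64.0% for K666T (56.5 to 70.8) and 54.4% in K700E (48.8 to 59.9), against 38.6% in WT (31.1 to 46.7), with adjusted p of 0.0239, 0.000188 and 0.0212. Both acceptors were in use in every library, and the mutants differed from WT by 15.8 to 25.3 points. The K700E call was lost when multi-mapped reads were added (8.64 points, adjusted p 0.187). With only the donor that has most reads, the R625H call (17.8 points, adjusted p 0.0633) and the K700E call (13.5 points, adjusted p 0.174) were lost, although the R625H difference was no smaller. A neighbouring pair, 11 nt apart, has an unannotated downstream acceptor that took 8 of 64 reads in K666T and none of 64 in R625H, 128 in K700E or 71 in WT. Its upstream share fell in K666T, to 87.5% against 100% in WT (adjusted p 0.0236).

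In HLTF, a ubiquitin ligase and translocase that extends PCNA ubiquitin chains at stalled forks, both acceptors of a pair 12 nt apart are annotated at coding exon 20 of 26, and the longer form keeps the frame. The capitals below are chr3:148759456-148759467 (hg19, minus strand), the bases kept with the upstream acceptor.
HLTF: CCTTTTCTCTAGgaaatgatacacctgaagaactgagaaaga

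The upstream share of HLTF was 25.3% in R625H (161 of 636 reads), 26.7% in K666T (180 of 675) and 22.1% in K700E (124 of 562), against 16.5% in WT (116 of 705). It rose in K666T alone, by 10.2 points (adjusted p 8.58e-05), which is close to the limit. R625H differed by 8.86 points (adjusted p 0.001) and K700E by 5.61 points (adjusted p 0.103), so the order of the mutants rests on a few points. K666T did not pass the test against R625H (adjusted p 1) or K700E (adjusted p 0.444).

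MUTYH, the glycosylase that removes adenine mispaired with oxidised guanine, held a pair 30 nt apart at coding exon 3 of 16, both annotated and in frame with each other. Reads on the MUTYH upstream acceptor were 14 of 45 in R625H, 21 of 41 in K666T and 24 of 62 in K700E, against 11 of 50 in WT. The share was 31.1% in R625H (19.5 to 45.7), 51.2% for K666T (36.5 to 65.7) and 38.7% in K700E (27.6 to 51.2), against 22.0% in WT (12.8 to 35.2). Only the K666T share rose (29.2 points, adjusted p 0.0474). The counts are small, and the intervals of R625H and K700E overlap that of WT. The most read MUTYH pair, at exon 12, had an upstream share of 2.99% in R625H, 4.52% in K666T, 7.38% in K700E and 2.41% in WT, and was not called.

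EXO1, a 5' to 3' exonuclease of end resection and mismatch repair, was called in R625H alone. An unannotated acceptor 25 nt before the last exon of a non-coding EXO1 transcript took 27 of 141 reads in R625H, and none of 152 in K666T, 169 in K700E or 71 in WT (adjusted p 0.000195). The junction is absent from the deposited lists of the other 3 libraries and was counted there as 0. No source used here says whether the lists leave out junctions with few reads. Both acceptors of this pair lie within coding exon 8 of 16, whose own acceptor took 536 reads in R625H. The share of the pair leaves those reads out, so it overstates the part of EXO1 splicing that uses the unannotated acceptor.

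**Figure D2:**
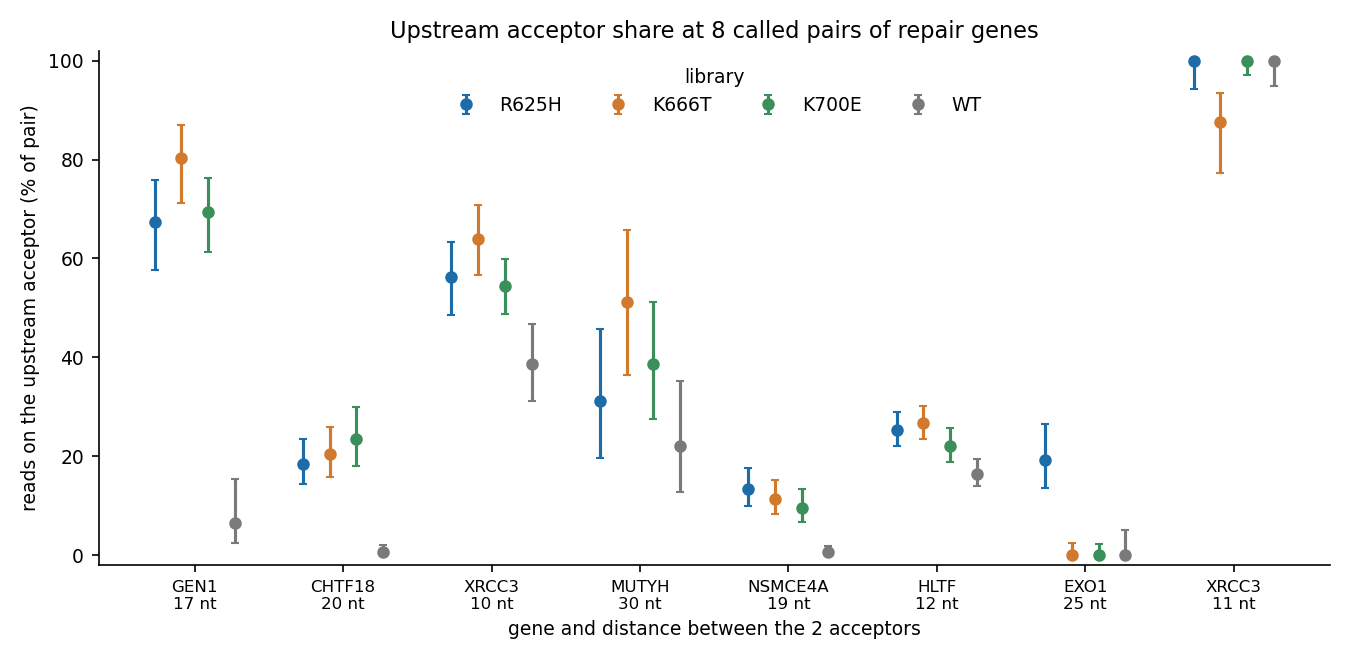
Percent of a pair's reads on the upstream acceptor (y axis) at the 8 called pairs of the members, with the gene and the distance between its acceptors on the x axis; points are the R625H, K666T, K700E and WT libraries and bars are 95% Wilson intervals. At GEN1, CHTF18 and NSMCE4A the 3 mutant libraries stand apart from WT, whereas at MUTYH and HLTF the intervals lie close to or over that of WT.

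At 7 other pairs the adjusted p was under 0.05 in at least 1 mutant library with a difference of 5 to 10 points, short of the limit, so they were not called. The upstream share was higher in the mutants at 3 of them and lower at 4. The first is in MRE11, the nuclease of the MRN complex that starts end resection. An unannotated acceptor 17 nt before its coding exon 13 of 20 took 32 of 389 reads in R625H, 8 of 368 in K666T and 14 of 450 in K700E, against 0 of 365 in WT. The share was 8.23% in R625H (adjusted p 1.19e-08), 2.17% in K666T (0.0734) and 3.11% in K700E (0.00608). RAD54L, a DNA translocase of strand invasion, had 10.5% in R625H, 3.64% in K666T and 7.76% in K700E, against 2.78% in WT, at a pair 30 nt apart. Its difference in R625H was 7.75 points (adjusted p 0.0304). A pair of EXO1 acceptors 12 nt apart had a share of 100% in R625H, K666T and K700E, against 94.7% in WT. Its unannotated downstream acceptor took 31 of 585 reads in WT (adjusted p 3.85e-08, 3.76e-08 and 2.15e-08 for R625H, K666T and K700E). That acceptor was counted as 0 in the mutant libraries, and the lists may leave out junctions with few reads.

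The other 4 pairs had lower shares, with an adjusted p under 0.05 in 1 mutant library each. In CHTF18, a pair of annotated acceptors 15 nt apart had 90.2% in R625H, 93.9% in K666T and 95.2% in K700E, against 96.7% in WT (adjusted p 0.014 in R625H). In FANCA, a subunit of the Fanconi core complex, an unannotated acceptor 27 nt downstream took 11 of 207 reads in R625H and none in K666T, K700E or WT (-5.31 points in R625H, adjusted p 0.00309). A BRCA1 pair 13 nt apart had 96.0% in R625H, 92.1% in K666T and 94.7% in K700E, against 98.8% in WT (adjusted p 0.00447 in K666T). An XRCC3 pair 15 nt apart had 1.16% in R625H and 0% in K666T and K700E, against 7.55% in WT (adjusted p 0.0459 in K700E).

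Only 28 of the 156 pairs, in 17 genes, were read at both acceptors in every library. The upstream share rose at 4 of them in R625H, 6 in K666T and 3 in K700E, which is 14.3%, 21.4% and 10.7%, where 3.73%, 2.67% and 2.33% of all such pairs were called higher. These are the called pairs described above other than that of EXO1 and the 11-nt pair of XRCC3. Some of the genes were listed with earlier results known, so this excess too describes the list and tests nothing. At 78 of the 156 pairs the upstream acceptor was unannotated and the downstream one annotated. Summed over these 78 pairs, the upstream acceptor took 266 reads in R625H, 181 in K666T, 188 in K700E and 86 in WT, or 1.26%, 0.797%, 0.819% and 0.356%. Without NSMCE4A, CHTF18 and EXO1, the sum gave 0.755% in R625H, 0.441% in K666T, 0.53% in K700E and 0.363% in WT. Those 3 genes were left out because their pairs were called. No such sum was made over the pairs of all genes, so both sums describe the list alone.

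By role, the called pairs lay in strand exchange (XRCC3; 31 pairs in 9 of its 12 genes), end resection (EXO1; 22 pairs in 5 genes), junction resolution (GEN1; 10 pairs in 3 of 4 genes) and the group of base excision, clamp loading, SMC5/6 and PCNA ubiquitin ligases (CHTF18, NSMCE4A, HLTF, MUTYH; 21 pairs in 5 genes). No pair was called among the 47 of the Fanconi genes, the 16 of the damage kinases ATM and ATR, or the 9 of the helicases BLM, WRN and BRIP1. Beside the shares of all pairs called higher or lower, given above, 0 calls in groups of this size is near the background and says nothing about these roles. FANCI, with most pairs, encodes the partner of FANCD2 in the complex that is ubiquitinated at crosslinks. The most read pairs of XRCC3 (exon 4), HROB (exon 9) and NSMCE4A (last exon, 3' UTR) had upstream shares under 1% in all 4 libraries.

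At other distances the members gave few calls. Among 110 pairs with a gap of 3 to 9 nt, 2 rose in K666T, 1 in K700E and 0 in R625H, where 1.69%, 1.7% and 1.68% of all such pairs were called in either direction. Both K666T pairs are in EXO1 and share 1 unannotated downstream acceptor, with 49 reads in R625H, 0 in K666T, 51 in K700E and 36 in WT. The K666T calls rest on that count of 0, and the lists may leave out junctions with few reads. The K700E pair is in FANCE, a linker of the Fanconi core complex, with 0 upstream and 101 downstream reads in R625H, 2 and 65 in K666T and 11 and 71 in K700E, against 0 and 94 in WT (adjusted p 0.0016 in K700E). Of 173 pairs 31 to 100 nt apart, 1 rose in R625H, 1 fell in K666T and 1 rose in K700E, against 1.93%, 1.88% and 2% of all such pairs in either direction. They are in FANCD2 (19 upstream and 162 downstream reads in R625H, 7 and 161 in K666T and 3 and 151 in K700E, against 0 and 214 in WT), FANCA and FANCI. These genes were named after their values were seen.

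Between mutant libraries, 1 member pair was called in each comparison. R625H was above K666T and above K700E at the EXO1 pair, and K666T was below K700E at the 11-nt XRCC3 pair (adjusted p 0.00221). Of all tested pairs, 1.38% were called between R625H and K666T, 1.52% between R625H and K700E and 1.46% between K666T and K700E. At GEN1 the shares of 67.3% in R625H and 80.2% in K666T differed by 12.9 points with an adjusted p of 0.374, so the mutants were not separated at these counts.

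Exon skipping was measured over 2093 cassette events in 40 members, each an exon of 10 to 500 nt with 2 inclusion junctions and a skipping junction. Inclusion rose against WT at 1 event in each of R625H, K666T and K700E, against 0.147%, 0.136% and 0.163% of all 287866 events. It fell at 2 events in R625H, 13 in K666T and 16 in K700E, which is 0.0956%, 0.621% and 0.764%, where 0.193%, 0.267% and 0.497% of all events were called lower. Events that share a skipping junction are not independent: the 26 called events rest on 13 skipping junctions in 9 genes, 3 of them called in R625H, 7 in K666T and 8 in K700E. Just 1 of the 26 events had at least 20 reads on both inclusion junctions in every library. In the others the mean of the 2 inclusion junctions can misstate inclusion in either direction. An unannotated BRCA1 exon, with 0 or 1 reads on 1 of its inclusion junctions in each library, was scored at 89.9% to 100% inclusion. The text therefore gives the skipping junction as a percent of all reads leaving its donor, with no test.

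The event with reads on both sides is exon 5 of 10 of HROB, the factor that loads the MCM8 and MCM9 helicase for DNA synthesis during recombination. The exon has 141 nt, a multiple of 3, at chr17:42230005-42230145 (hg19, plus strand). It stands in capitals below, between the last bases of the exon before it and the first of the exon after it, since it is the called cassette that was read on both sides.
HROB: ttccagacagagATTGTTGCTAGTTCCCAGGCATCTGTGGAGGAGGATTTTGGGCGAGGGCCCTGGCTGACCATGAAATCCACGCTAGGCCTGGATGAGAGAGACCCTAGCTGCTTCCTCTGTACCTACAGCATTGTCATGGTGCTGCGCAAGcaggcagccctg

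Reads that skip HROB exon 5 numbered 29 in R625H, 51 in K666T and 50 in K700E, against 12 in WT. The 2 inclusion junctions had 94 and 67 reads in R625H, 82 and 83 in K666T, 64 and 66 in K700E, and 71 and 77 in WT. Inclusion was 73.6% in R625H (64.7 to 81.0), 61.9% for K666T (53.5 to 69.7) and 56.5% in K700E (47.4 to 65.2), against 86.0% in WT (77.2 to 91.8). It fell in K666T (adjusted p 0.0122) and K700E (adjusted p 0.000705, Benjamini-Hochberg over all events), and R625H did not pass (adjusted p 0.761). R625H lay between WT and the other mutants and its interval overlapped both. As a percent of the donor's reads, skipping was 22.8% in R625H, 35.9% in K666T and 40.7% in K700E, against 14.0% in WT.

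Of the other 12 skipping junctions 6 are in Fanconi genes, and FANCG, a core complex scaffold, held 4. Skipping of FANCG exon 13 of 14, a length that is not a multiple of 3, took 9.30% of its donor's reads in R625H (40 of 430), 9.85% in K666T (46 of 467) and 13.1% in K700E (50 of 382), against 4.18% in WT (18 of 431). A junction over exon 2 took 2.74% in R625H, 5.44% in K666T and 4.93% in K700E, and no read of 230 in WT. Joint skipping of exons 6 and 7 took 5.19% in R625H, 7.75% in K666T and 10.6% in K700E, against 3.65% in WT. A junction over exon 9 to an unannotated acceptor took 9.02% in R625H, 7.17% in K666T and 8.26% in K700E, against 3.41% in WT. Calls were made in K666T and K700E over exons 13 and 2. Over exons 6 and 7 only K700E was called, and over exon 9 only R625H. Over exons 13, 2 and 9 the called exons were unannotated ones that share the junction, and the annotated exon was not called. All 4 FANCG junctions had a higher percent in every mutant library than in WT. They were picked by calls against that same WT library, so this order tests nothing.

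FANCL, the ubiquitin ligase of the core complex, showed joint skipping of exons 10 and 11 (128 nt, not a multiple of 3). It took 6.67% in R625H (13 of 195), 9.09% in K666T (17 of 187) and 7.78% in K700E (13 of 167), against 1.40% in WT (3 of 215). In RAD54L, joint skipping of exons 7 and 8 took 3.47% in R625H, 10.9% in K666T and 7.01% in K700E, against 1.69% in WT. In MUTYH, skipping of exon 3, the single junction of the 13 that matches an annotated intron, took 3.54% in R625H, 6.50% in K666T and 6.86% in K700E, against 1.79% in WT. In BRCA1, the ubiquitin ligase that channels breaks into recombination, a junction over exon 8 (46 nt) took 0.461% in R625H, 2.89% in K666T and 5.05% in K700E, and no read of 251 in WT. Calls were made at FANCL and RAD54L in K666T alone, and at MUTYH and BRCA1 in K700E alone. At RAD54L and BRCA1 the called exons were unannotated ones that share the junction, and no annotated exon was called. The FANCL, RAD54L, MUTYH and BRCA1 junctions had the lowest percent in WT, but they too were picked by calls against WT. Their counts are small: 3 of 177 reads in WT at RAD54L and 4 of 223 in WT at MUTYH.

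NSMCE4A, whose exon 2 acceptor is described above, also had a junction over exon 9, with 9.96% in R625H (51 of 512), 8.13% in K666T (43 of 529) and 6.90% in K700E (35 of 507), against 4.08% in WT (36 of 882). The call there was made in R625H alone, at an unannotated exon that shares the junction. The single events with higher inclusion were all NSMCE4A exon 6, where a junction to an unannotated acceptor had 65 reads in WT and none in the 3 mutant libraries. Junctions to 2 further unannotated acceptors were read in few libraries: over EXO1 exon 5 with 29 reads in K700E, and over FANCA exon 26 with 15 reads in K666T, 1 in K700E and none in R625H or WT. The FANCA junction also had 12 multi-mapped reads in K700E and 0 in K666T, so with both kinds of read counted K666T and K700E were close. As with the EXO1 acceptor, these junctions are absent from the lists of the other libraries and were counted as 0.

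**Figure D3:**
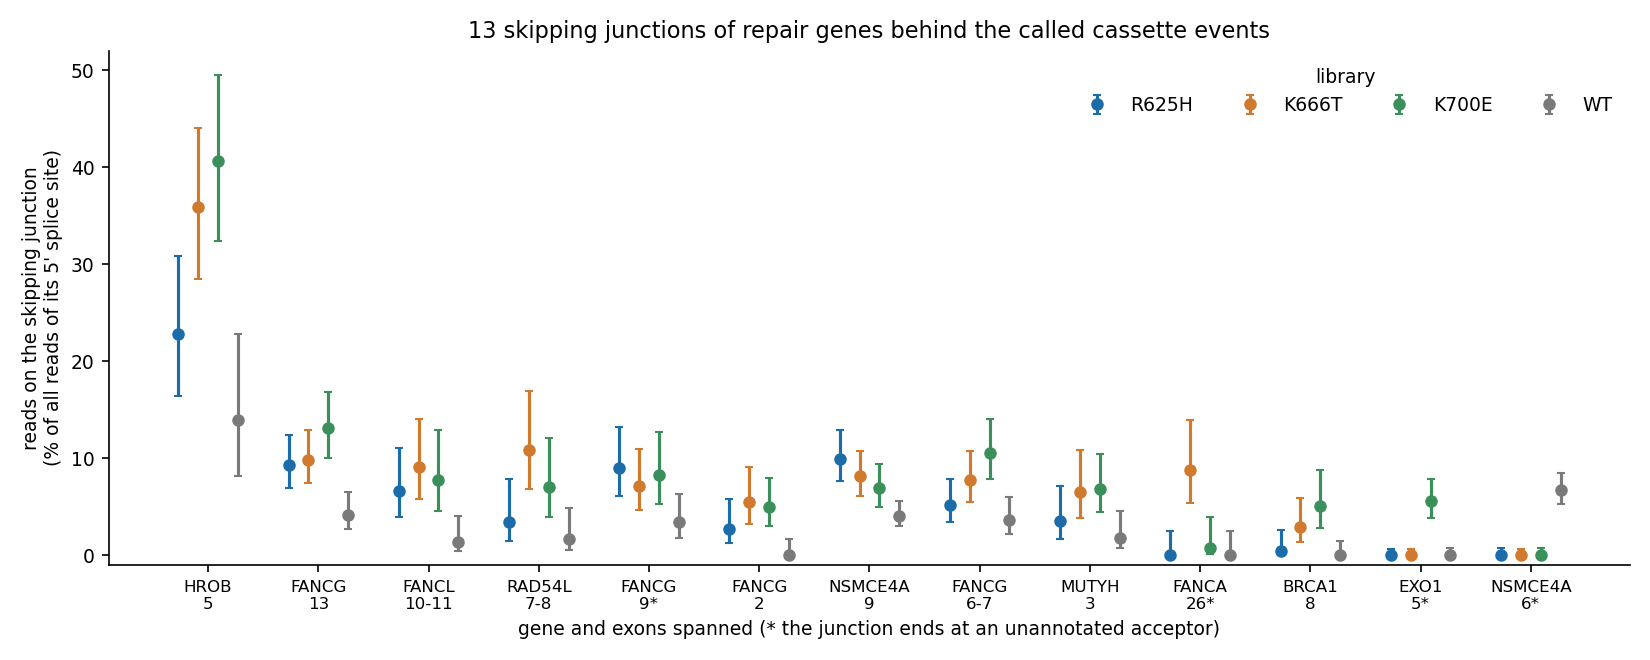
Reads on each of the 13 skipping junctions as a percent of all reads of the junction's donor (y axis), by gene and exons spanned (x axis; a star marks a junction to an unannotated acceptor), for R625H, K666T, K700E and WT with 95% Wilson intervals. HROB exon 5 has the highest percent in each library, from 22.8% in R625H to 40.7% in K700E, against 14.0% in WT.

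XRCC2, a strand exchange gene with no tested acceptor pair, was looked at by its internal exon after its values were seen. Over the most read of its 3 skipping junctions, inclusion of exon 2 of 3 was 93.7% in R625H, 90.8% in K666T and 89.6% in K700E, against 94.3% in WT. That junction had 20 reads in R625H, 30 in K666T and 51 in K700E, against 17 in WT, and no library passed the test (adjusted p 1, 0.995 and 0.423). Over the other 2 junctions inclusion was at least 98.8% in every library. Between mutant libraries, 3 member events were called for R625H against K666T, 2 for R625H against K700E and 1 for K666T against K700E, while 0.214%, 0.328% and 0.314% of all events were called in either direction. They are in FANCA, FANCL, EXO1 and RAD51C, a partner of XRCC3.

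Unannotated introns took a larger share of the members' junction reads in the mutant libraries. Over all members the share was 3.20% in R625H, 3.25% in K666T and 3.62% in K700E, against 2.37% in WT. Over all placed genes together it was 2.19% in R625H, 2.23% in K666T and 2.29% in K700E, against 1.85% in WT, a smaller rise. The members were chosen with earlier results known, so this difference describes the list. The share was above WT in 33 of 40 members in R625H, 36 in K666T and 34 in K700E (82.5%, 90.0% and 85.0%). Of the 8985 genes with at least 590 junction reads in each library, the smallest total of a member, 78.0%, 79.1% and 82.0% were also above WT in the same libraries. By this count of genes, though not by the size of the pooled rise, the members are close to the rest. HROB had 10.5% in R625H, 11.4% in K666T and 13.5% in K700E, against 8.13% in WT. XRCC2 was highest in every library, with 16.7% in R625H, 18.3% in K666T and 16.4% in K700E, against 17.1% in WT, and did not move in 1 direction.

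**Figure D4:**
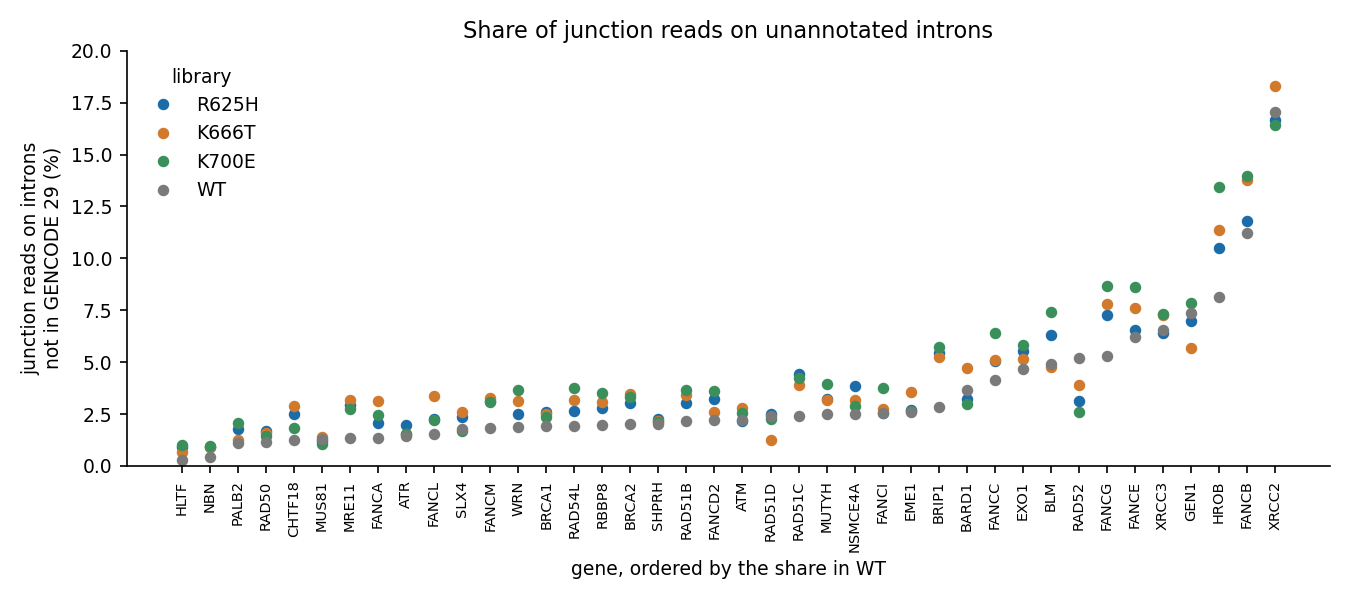
Percent of a member's unique junction reads on introns that GENCODE 29 does not hold (y axis) for 40 members, ordered along the x axis by the share in WT, with 1 point per library for R625H, K666T, K700E and WT. The WT point is below the others in most genes, and XRCC2, FANCB and HROB have the highest shares.

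Transcript levels of the 41 genes stayed within 2-fold of WT in each mutant library, where 0.68% of all 14847 genes were at least 2-fold apart in R625H, 0.7% in K666T and 1.74% in K700E. The median log2 ratio of CPM (prior count 10) over the members was 0.00 in R625H, 0.01 in K666T and 0.06 in K700E, beside -0.02, 0.00 and 0.00 over all genes. No test is possible with 1 library per group, and the intervals below cover counting error only. In bulk RNA, a change per cell and a change in how many cells carry the vector cannot be told apart.

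NSMCE4A was the lowest member in every mutant library. It had 35.7 CPM in R625H, 38.6 in K666T and 33.9 in K700E, against 55.4 in WT, from 2938, 3333, 2817 and 5034 reads. The log2 ratio was -0.63 in R625H (95% interval -0.70 to -0.56), -0.52 for K666T (-0.58 to -0.46) and -0.70 in K700E (-0.77 to -0.64). Of 14847 genes, 43 had a lower ratio in R625H, 104 in K666T and 191 in K700E. CHTF18 had 62.9 CPM in R625H, 64.0 in K666T and 73.4 in K700E, against 77.2 in WT, or -0.29, -0.27 and -0.07 on the log2 scale. The other members among the lowest 5 were RAD50, the ATPase of the MRN complex (-0.22, -0.07 and -0.11 in R625H, K666T and K700E), HLTF (-0.05, -0.12 and -0.16) and the kinase ATR (-0.15, -0.09 and -0.07).

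HROB was the highest member by mean log2 ratio, with 30.1 CPM in R625H, 32.0 in K666T and 29.3 in K700E, against 24.3 in WT. Its log2 ratio was 0.31 in R625H (0.23 to 0.39), 0.40 for K666T (0.32 to 0.48) and 0.27 in K700E (0.19 to 0.35). In K700E alone, XRCC3 (0.34), FANCB (0.32) and RAD52 (0.30) were above it. The next 4 by mean ratio were RAD52, which anneals single strands (0.09, 0.25 and 0.30 in R625H, K666T and K700E), EXO1 (0.14, 0.18 and 0.25), XRCC3 (0.08, 0.11 and 0.34) and XRCC2 (0.09, 0.16 and 0.23). GEN1, with the largest acceptor shift, had 43.0 CPM in R625H, 44.5 in K666T and 42.4 in K700E, against 39.3 in WT, or 0.13, 0.18 and 0.11. MUTYH stayed at -0.02, -0.06 and -0.06, and MRE11 at -0.09, -0.01 and 0.12. Of the other genes named for splicing, FANCA, FANCG, FANCL, BRCA1 and RAD54L lay between -0.10 and 0.12, and FANCD2, FANCE and FANCI between -0.12 and 0.07. RAD51C had 0.16, 0.15 and 0.13.

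**Figure D5:**
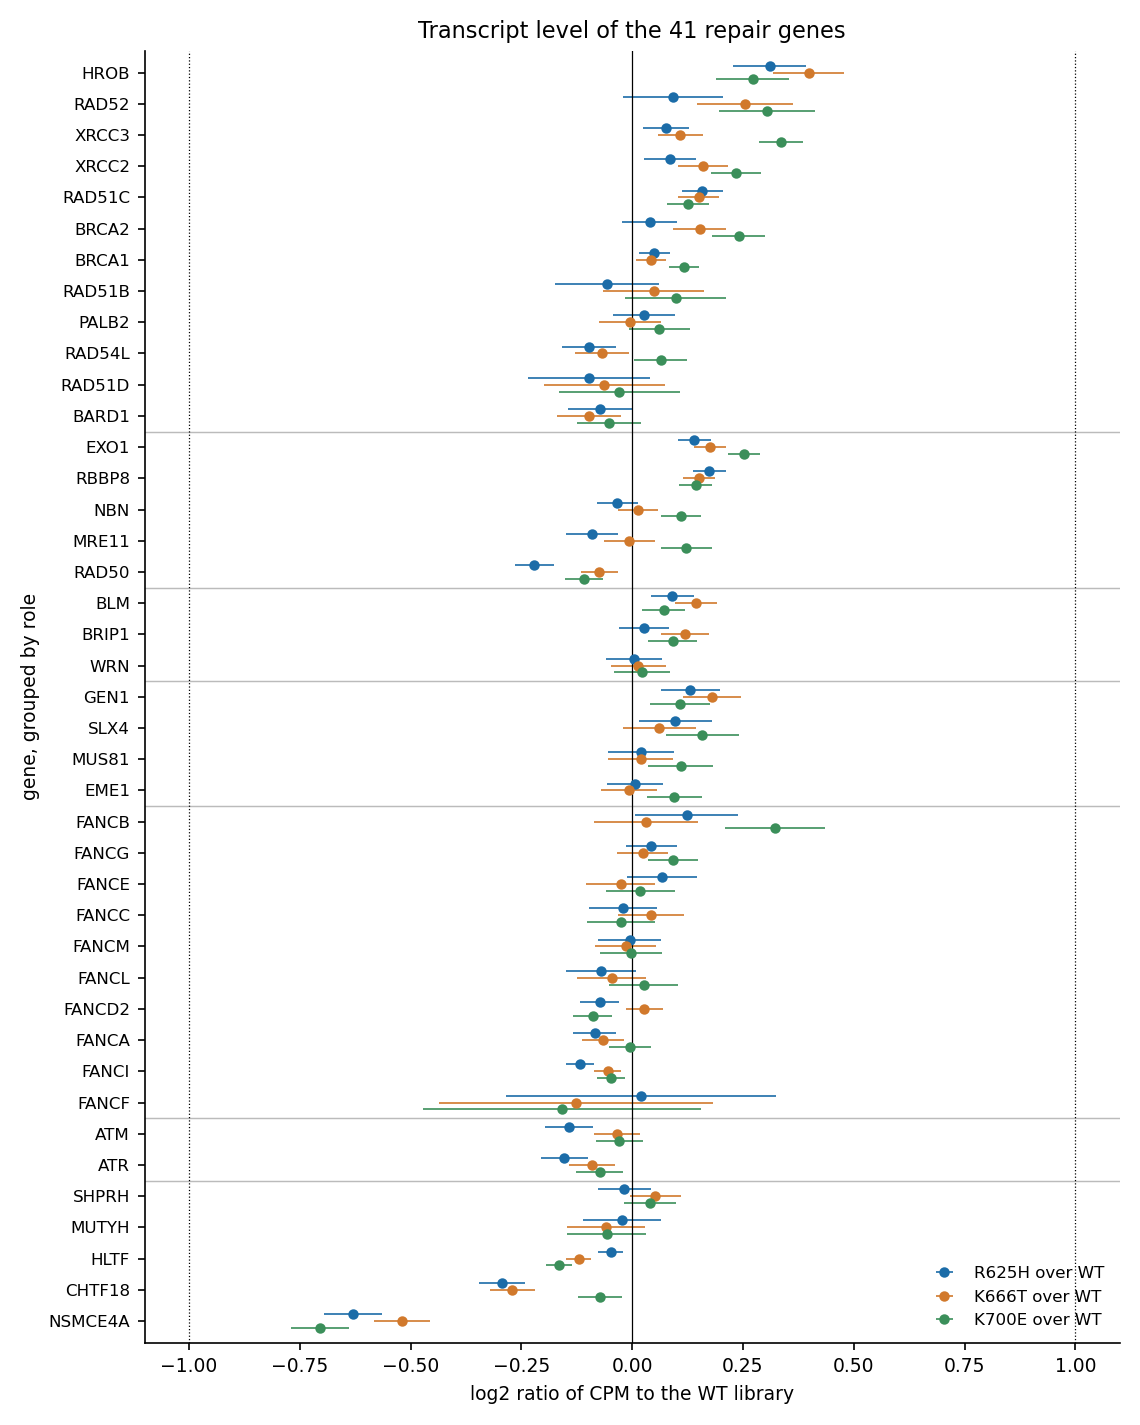
Log2 ratio of CPM to the WT library (x axis) for the 41 members, grouped by role down the page, for R625H, K666T and K700E, with 95% counting intervals as bars; dotted lines mark 2-fold. No point passes a dotted line, and NSMCE4A is the lowest and HROB among the highest members.

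By role, the medians in R625H, K666T and K700E were 0.04, 0.08 and 0.12 for 12 strand exchange genes, -0.03, 0.01 and 0.12 for 5 resection genes, 0.03, 0.12 and 0.07 for 3 helicases and 0.06, 0.04 and 0.11 for 4 resolution genes. They were -0.01, -0.02 and 0.00 for 10 Fanconi genes, -0.15, -0.06 and -0.05 for ATM and ATR, and -0.05, -0.12 and -0.07 for the last group of 5. Counts of FANCD2 are uncertain because of its near-identical pseudogene copies, those of RAD51D because a read-through gene overlaps it on the same strand, and those of RAD50 because of an overlapping gene model on the same strand. Gene models on the same strand also overlap other members, among them RAD52, ATR, MRE11 and BRCA1, and their effect on the counts was not tested.

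Related genes outside the 41 were also within 2-fold in all 3 mutant libraries. This held for 38 other recombination and crosslink genes, 17 base excision genes, 7 measured end joining genes and 5 measured mismatch repair genes. Medians of the 38 genes were 0.01 in R625H, 0.08 in K666T and 0.07 in K700E. Among them SMC5, a core ATPase of the complex that holds NSMCE4A, had 0.29, 0.31 and 0.23, and NSMCE2, its SUMO ligase, had 0.23, 0.34 and 0.30, both above WT where NSMCE4A was below it, while NSMCE1 had -0.18, -0.14 and -0.23. LIG3, a DNA ligase of base excision, was lowest in its list by mean ratio, at -0.72, -0.43 and -0.30, although MPG (-0.40) and NEIL1 (-0.33), both base excision glycosylases, were lower in K700E. Medians of 14 measured S phase genes were 0.00, 0.00 and 0.01 and those of 14 G2 and M genes -0.02, 0.02 and -0.08, so the medians of both cell cycle lists lay within 0.1 of WT on the log2 scale. Single genes lay further off, such as DTL with 0.23, 0.32 and 0.42.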

How the data were processed

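Poly(A) RNA of 4 HEK293T transfections was sequenced, 1 library each for R625H, K666T, K700E and WT. The deposited values are counts, not normalized by the authors: reads per gene, and uniquely mapped and multi-mapped reads per splice junction, with each junction's longest overhang as a deposited value in nt. STAR 2.5.3a, HTSeq and the build hg19/GRCh37 are named in the submitters' processing notes; what HTSeq did and which annotation was used are not given there. The kit is stranded per the labels, so gene counts on the strand opposite to read 1 were used, and the other strand held 5.72% to 5.97% of reads. Library sizes leave out the 4 rows of each gene table without a gene. Of 57820 IDs, 51996 were matched to a name table.

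Annotated sites come from GENCODE 29 (GRCh38), whose intron lengths and order were laid on the hg19 junctions (at least 2 introns, shift up to 5000000 bp); 40 of 41 members were placed, and only hg19 positions are printed, each acceptor by the last base of its intron. Sequences were read from GENCODE 29 transcripts.

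Acceptor pairs and cassette exons needed at least 20 reads in each library. Inclusion reads were the rounded mean of the 2 inclusion junctions. Tests were two-sided Fisher's exact tests with Benjamini-Hochberg adjustment over all 21532 pairs or 287866 events, and events were called at an adjusted p under 0.05 with 10 points or more. "Rose" and "fell" are used of called events. Gene levels were compared as log2 CPM ratios with a prior count of 10 and no test. The members and lists were chosen with earlier results of these data known. Named were all called events, the most read pair of GEN1, XRCC3, HROB, CHTF18, MUTYH and NSMCE4A, and the 5 highest and 5 lowest members by mean ratio; MRE11, the 30-nt pair of RAD54L, XRCC2 exon 2 and events called only between mutants were named after their values were seen. Scripts ran on Python 3.11.15 with scipy 1.17.1, statsmodels 0.14.6 and numba 0.67.0, and were tested on simulated data; edgeR 4.0.16 and DESeq2 1.42.0 under R 4.3.3 gave only the TMM and median-of-ratios scaling factors of the alternatives. Other alternatives changed the read minimum, the difference limit, multi-mapped reads, the donors summed, the inclusion measure, the prior count, the low-count filter and the strand.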

Additional observations from a re-analysis of the deposited data

Results flagged for a closer look

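The results below differ between 2 mutant libraries by the test of that difference itself (two-sided Fisher's exact test, adjusted over all pairs or events). At the EXO1 acceptor pair 25 nt apart, the upstream share was 19.15 points higher in R625H (27 of 141 reads) than in K666T (0 of 152, adjusted p 2.69e-08), and 19.15 points higher than in K700E (0 of 169, adjusted p 5.56e-09). This share leaves out the acceptor of coding exon 8, which took 536 reads in R625H. At the XRCC3 pair 11 nt apart, K666T minus K700E was -12.5 points (87.5% in K666T and 100% in K700E, adjusted p 0.00221).

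Inclusion of EXO1 exon 5 was 13.43 points higher in R625H than in K700E (adjusted p 1.47e-07) and 13.43 points higher in K666T than in K700E (adjusted p 1.18e-07), with 0 skipping reads in R625H and K666T and 29 in K700E. As 1 of its inclusion junctions has few reads, the same skipping is 5.54% of the donor's reads in K700E and 0% in R625H and K666T. FANCA exon 26 was 16.3 points higher in R625H than in K666T (adjusted p 0.0347), with 0 and 15 skipping reads, and an unannotated form of the exon with another acceptor, which shares the skipping junction, gave the same 16.3 points. As a percent of the donor's reads, FANCA skipping was 0% in R625H and 8.77% in K666T. An unannotated 48-nt exon of FANCL gave -11.41 points for R625H minus K666T (adjusted p 0.0387), with 18 skipping reads in R625H and 3 in K666T. An unannotated 46-nt exon of RAD51C was included at 24.32% in R625H (9 inclusion and 28 skipping reads) and 0% in K700E (0 and 47 reads), a difference of 24.32 points (adjusted p 0.0407). In each of these events 1 of the junctions has no read in at least 1 library, and no reason for that was tested.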

How the results depend on the processing

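No paired analysis was possible because each group has 1 library, and for the same reason none could be left out. No result changed direction among those with a test. Called pairs against WT numbered 5 in R625H, 7 in K666T and 3 in K700E. With at least 10 reads K700E had 7; with a limit of 5 points R625H had 11 and K700E had 6; with 20 points R625H had 1 and K666T had 3. Called exons numbered 3, 14 and 17. With 5 points R625H had 5 and K700E had 32; with 20 points the counts were 1, 4 and 5; with the lower inclusion junction K666T had 5 and K700E had 3; with all 3 junctions read everywhere they were 0, 4 and 6; and with annotated exons alone tested, and p adjusted over them, a set chosen after seeing the data, 1, 3 and 4. Mutants against each other gave 4, 3 and 2 called pairs and exons, and 0 in each comparison with all junctions read everywhere, also chosen afterwards. The other 39 alternative counts stayed within 1.5 times, and no member passed 2-fold under any scaling, filter or strand tried. Of single events, 13 pair values and 14 exon values lost their call under an alternative and 2 pair values gained one. TMM and DESeq2 scaling put the member median of K666T at -0.01 and 0.00. With unstranded counts, 5 log2 ratios of K700E moved outside their counting interval. Among called pairs depth limits MUTYH most, where 41 to 62 reads leave Wilson intervals over 20 points wide; a called FANCG exon with 22 to 27 reads has a WT interval of 38.7 to 76.7.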
